A study of Mus musculus with 4 samples.

Results

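The genes described here carry fatty acids out of circulating lipoproteins and into cells, and were read in brown adipose tissue of Ebf2 KO mice (2 libraries) and WT mice (2 libraries). They are 10 named genes, all of which were found by symbol among the 12165 genes of the deposited expression table: Lpl, Gpihbp1, Lmf1, Angptl4, Vldlr, Cd36, Slc27a1, Slc27a2, Slc27a3 and Slc27a4. All 4 libraries came from adult mice of mixed strain aged 8 weeks, fed chow at room temperature. The sources used here do not say which part of Ebf2 the mice lack, in which cells, or how many animals went into a library. The p-values below therefore measure the spread between these libraries only. Brown fat is adipose tissue that burns fuel to make heat, and EBF2 is a transcription factor of its fat cells and their precursors.

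Triglyceride-rich lipoproteins deliver fat to tissues along the capillary wall. There lipoprotein lipase (LPL), made by fat and muscle cells and held on the endothelial surface by GPIHBP1, frees fatty acids from triglyceride. The fatty acids cross into cells with the help of CD36 and of the fatty acid transport proteins of the SLC27 family, which also join fatty acids to coenzyme A. Brown fat is known to clear lipoprotein triglyceride from blood at a high rate when it is making heat.

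The unit of expression was RPKM, a read count divided by the length of the gene and by the total of the library. The RPKM values fit library totals of 162782640 to 199678916 reads, and a gene of the list had at least 22 reads in each library, so all 10 were measured above 0 in all 4. The listed genes of the table held at least 58.0% and 60.6% of that total in the Ebf2 KO libraries, against 42.5% and 44.7% in the WT libraries. The median log2 change of all genes was 0.45 on the log2(RPKM + 1) scale. Each change is also given after every library was centred on its own median ("centring"), which took 0.52 off each log2 change. Ebf2 itself stood at 0.391 and 0.352 RPKM in Ebf2 KO, against 2.97 and 2.63 RPKM in WT. All 10 brown fat cell markers examined, among them Ucp1 and Dio2, were lower in Ebf2 KO, with a summed level of 974.8 and 384.6 RPKM in Ebf2 KO and 11569 and 12481 RPKM in WT. Markers shared by all fat cells, such as Adipoq, remained abundant in Ebf2 KO (39554 and 33161 RPKM summed over 10 genes, against 20390 and 14801 RPKM in WT). Most of that sum was Fabp4, which averaged 24054 RPKM in Ebf2 KO and 14910 RPKM in WT (limma adjusted p = 0.369). Ebf2 KO lay above WT without overlap for 7 of the 10 and below for 2, Pparg and Pnpla2. Those shares over all genes were 65.4% and 9.3%. Of these 10, 6 rose and 0 fell on RPKM (2 rose without Ebf2 KO replicate 2), and 1 rose and 1 fell after centring, both lost without Ebf2 KO replicate 2 or WT replicate 2.

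The 10 genes did not move together. Slc27a2, a fatty acid transport protein, was nearly lost in Ebf2 KO at a 217-fold lower mean, and the lipoprotein receptor gene Vldlr was 2.66-fold lower. Slc27a1, a relative of Slc27a2, was 3.23-fold higher, Lpl 2.21-fold and Slc27a4 1.93-fold. On RPKM, 3 of the 10 genes rose, where 24.4% of all genes did, and 2 fell, where 3.54% of all genes did (limma on log2(RPKM + 1), adjusted p under 0.05 over all genes). After centring, 1 rose, where 8.42% of all genes did, and 3 fell, where 10.3% did. In the authors' deposited table, made with edgeR, 1 was higher and 3 were lower at an FDR under 0.05, where 10.9% of all genes were higher and 10.5% lower. The members' median log2 change was 0.38 on RPKM and -0.15 after centring, where that of all genes was 0.45 and -0.07. The genotypes did not overlap for 9 of the 10 genes, with Ebf2 KO the higher for 6 and the lower for 3. Over all genes these shares were 65.4% and 9.3%, so the 6 follow the direction of most of the table.

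**Figure D1:**
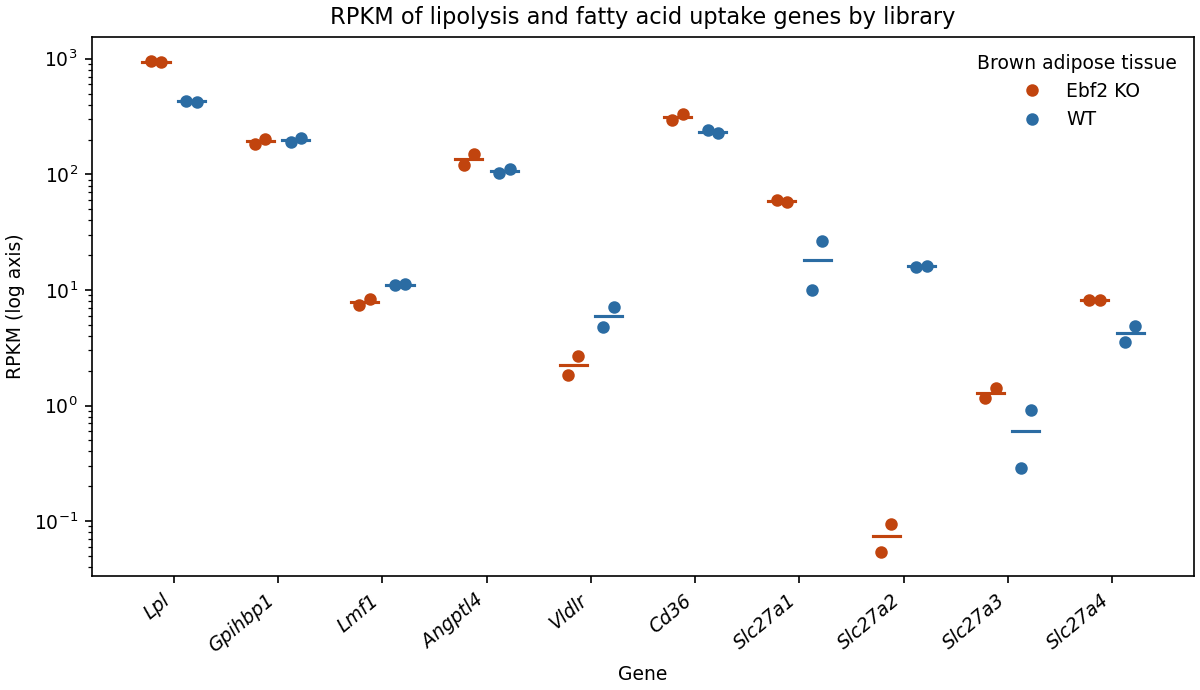
RPKM of the 10 genes (log axis) in each Ebf2 KO library (orange) and WT library (blue), with a bar at each group's mean (n = 2 each). Slc27a2 lies at 0.0541 and 0.0934 RPKM in Ebf2 KO, against 15.9 and 16.1 RPKM in WT, while Gpihbp1 is the gene whose groups overlap.

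Lpl was the most abundant of the 10 genes in both genotypes. It stood at 950.4 and 940.0 RPKM in the Ebf2 KO libraries and at 431.1 and 425.6 RPKM in the WT libraries. The groups were far apart beside the spread within each, with means of 945.2 ± 7.33 RPKM in Ebf2 KO and 428.3 ± 3.91 RPKM in WT (SD, n = 2 each). Lpl rose by a log2 change of 1.14 on RPKM (SE 0.248, limma adjusted p = 0.0178), and ranked 75th of 12165 genes by level in Ebf2 KO and 164th in WT. The call depended on the scaling. It held under quantile normalization (log2 change 0.93, limma adjusted p = 0.0231). After centring the log2 change was 0.62 (95% interval -0.37 to 1.60, limma adjusted p = 0.373). The authors' deposited table gave Lpl a log2 fold change of 0.49, with an edgeR FDR of 0.350. The call on RPKM also rested on both Ebf2 KO libraries, since the limma adjusted p was 0.108 without Ebf2 KO replicate 1 and 0.160 without Ebf2 KO replicate 2.

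GPIHBP1 is the protein that carries LPL across capillary endothelial cells and anchors it there. Gpihbp1 was measured at 183.8 and 203.2 RPKM in Ebf2 KO, against 189.7 and 205.9 RPKM in WT. The groups overlapped, and the log2 change was -0.03 (95% interval -0.52 to 0.46, limma adjusted p = 0.909). After centring it was -0.56 (95% interval -1.34 to 0.23, limma adjusted p = 0.308). The authors' deposited table gave Gpihbp1 a log2 fold change of -0.68, which did not pass (edgeR FDR 0.146). Because its messenger comes from endothelium, the markers of that cell type were read beside it. The 16 endothelial markers measured, among them Pecam1 and Cdh5, summed to 527.6 and 557.2 RPKM in Ebf2 KO and to 382.1 and 597.7 RPKM in WT. Of them 1 rose on RPKM and 0 fell, where 24.4% of all genes rose and 3.54% fell. The 1 was Plvap, which builds the diaphragms of endothelial vesicles. More of them rose when WT replicate 2 was left out, as did more of all genes. After centring 1 rose and 1 fell. The centred rise was lost when Ebf2 KO replicate 1 or either WT library was omitted, and the centred fall without Ebf2 KO replicate 2. Gpihbp1 came to 0.348 and 0.365 times that sum in Ebf2 KO and 0.497 and 0.345 times in WT, so this ratio overlapped too. In bulk tissue, fewer cells of a type and less RNA per cell cannot be told apart.

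A ratio of genes within a library does not depend on how that library was scaled. The ratio of Lpl to Gpihbp1 RPKM was 5.17 and 4.63 in the Ebf2 KO libraries, against 2.27 and 2.07 in the WT libraries. The genotypes did not overlap in it. With 2 libraries a group an exact permutation test cannot go below 0.333, two-sided, and none was run on these ratios. Set against Adipoq, a hormone gene of fat cells that was itself higher in Ebf2 KO on RPKM (limma adjusted p = 0.00728, and 0.0962 after centring), the order was the opposite. Lpl came to 0.420 and 0.395 times Adipoq in Ebf2 KO, against 0.603 and 0.756 times in WT.

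LMF1 is the chaperone of the endoplasmic reticulum that LPL needs to fold into an active enzyme. Lmf1 was at 7.37 and 8.40 RPKM in Ebf2 KO and at 11.1 and 11.2 RPKM in WT. Both Ebf2 KO values were lower, but the difference did not pass on RPKM (log2 change -0.45, SE 0.216, limma adjusted p = 0.141). It passed after centring, where the log2 change was -0.97 (limma adjusted p = 0.0144). The authors' deposited table also had it lower, by a log2 fold change of -1.15 at an edgeR FDR of 0.000980. The centred call was lost without Ebf2 KO replicate 1, Ebf2 KO replicate 2 or WT replicate 1 (limma adjusted p = 0.0527, 0.0807 and 0.0738). Set against its client within a library, there were 128.9 and 111.8 times as many RPKM of Lpl as of Lmf1 in Ebf2 KO, against 39.0 and 38.1 times in WT.

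ANGPTL4 is a secreted inhibitor that inactivates LPL, and its gene is induced by fasting and by fatty acids. Angptl4 stood at 120.1 and 150.5 RPKM in Ebf2 KO and at 101.7 and 110.5 RPKM in WT. Both Ebf2 KO values were the higher ones, yet the difference did not pass (log2 change 0.34, 95% interval -0.16 to 0.84, limma adjusted p = 0.239). Its sign turned with the scaling, to -0.18 after centring (limma adjusted p = 0.740). It was -0.30 in the authors' deposited table, with an FDR of 0.605. Lpl exceeded Angptl4 by 7.91 and 6.24 times in Ebf2 KO and by 4.24 and 3.85 times in WT, as a ratio of RPKM within each library.

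VLDLR is an endothelial and tissue receptor that binds triglyceride-rich lipoproteins and helps LPL act on them. Vldlr was at 1.82 and 2.67 RPKM in Ebf2 KO, against 4.81 and 7.13 RPKM in WT. The groups did not overlap, and replicate 2 was the higher library in both. Vldlr fell by 1.09 on the log2(RPKM + 1) scale (SE 0.287, limma adjusted p = 0.0307), and its log2 change after centring was -1.62 (limma adjusted p = 0.000627). Vldlr was in the authors' deposited table at a log2 fold change of -2.04 with an FDR of 6.24e-09, the 173rd smallest p-value of the table. On RPKM the call was lost without Ebf2 KO replicate 1 (limma adjusted p = 0.128) or Ebf2 KO replicate 2 (0.0752). After centring it held with any 1 library left out. There were 521.8 and 351.7 RPKM of Lpl for each of Vldlr in Ebf2 KO, against 89.6 and 59.7 in WT.

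CD36 is a membrane glycoprotein that takes up long-chain fatty acids in fat, muscle and endothelium, and brown fat needs it to use them. Cd36 was second to Lpl in level in both genotypes, at 292.2 and 332.8 RPKM in Ebf2 KO and 239.5 and 228.4 RPKM in WT. Ebf2 KO lay above WT without overlap, by a log2 change of 0.41 that did not pass (95% interval -0.10 to 0.93, limma adjusted p = 0.174). The sign turned after centring (-0.11, limma adjusted p = 0.876). The authors' deposited table likewise gave a negative value, -0.24 at an FDR of 0.695. Within each library there were 3.25 and 2.82 RPKM of Lpl for each of Cd36 in Ebf2 KO, against 1.80 and 1.86 in WT. Cd36 came to 0.129 and 0.140 times Adipoq in Ebf2 KO, against 0.335 and 0.406 times in WT. Neither ratio overlapped between the genotypes.

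**Figure D2:**
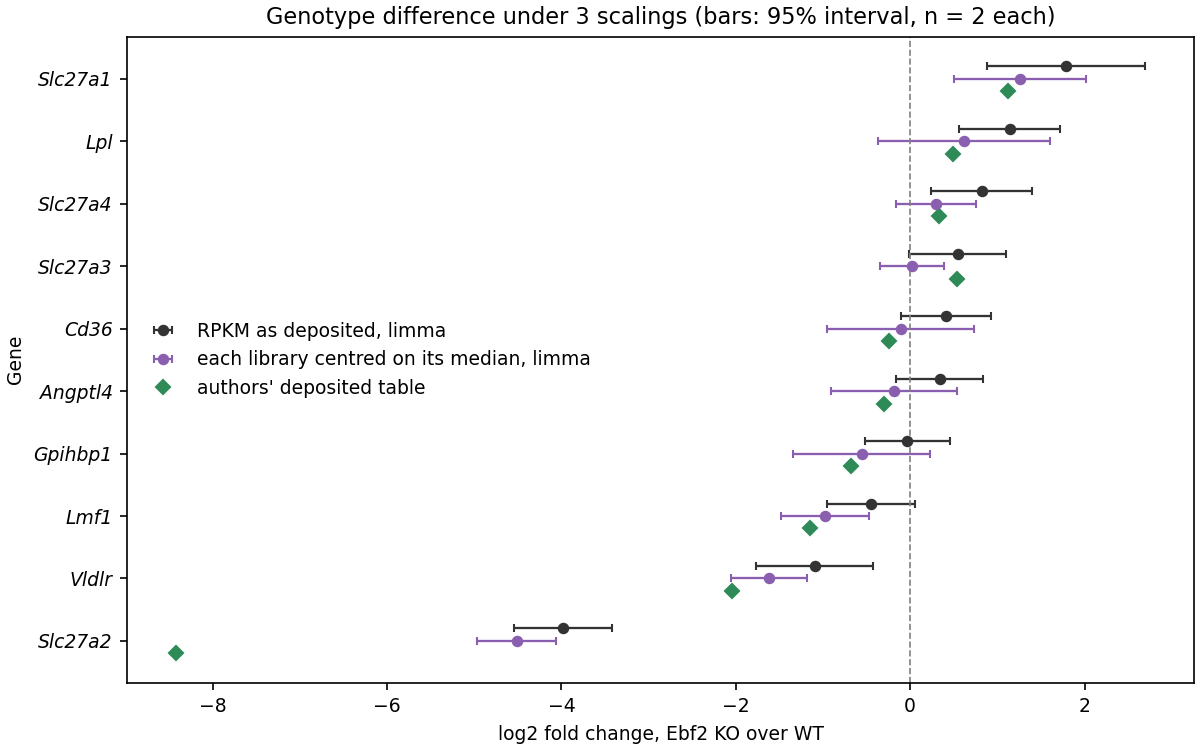
log2 fold change of Ebf2 KO over WT for the 10 genes, from limma on log2(RPKM + 1) as deposited and after centring each library on its median (points with 95% intervals, n = 2 each), and from the authors' deposited edgeR table (diamonds, no interval). Slc27a2 and Vldlr lie below 0 and Slc27a1 above 0 on all 3 scales, whereas Cd36 and Angptl4 change side.

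The fatty acid transport proteins of the SLC27 family held the largest change of the list. SLC27A2 (FATP2) is a synthetase for very long-chain fatty acids that also moves fatty acids into cells, and in mice it is best known from liver and kidney. Slc27a2 was at 0.0541 and 0.0934 RPKM in Ebf2 KO, against 15.9 and 16.1 RPKM in WT. These values stood for 22 and 35 reads in Ebf2 KO (exact Poisson 95% intervals 13.8 to 33.3 and 24.4 to 48.7 reads, counting error only), against 7312 and 6550 reads in WT. Slc27a2 fell by 3.99 on the log2(RPKM + 1) scale (SE 0.242, limma adjusted p = 0.000382), a scale that understates the change of a gene this low in Ebf2 KO. The log2 ratio of mean RPKM was -7.76. The authors' deposited table gave it a log2 fold change of -8.42 at an FDR of 2.37e-80, with the smallest p-value of all 12165 genes. Only 4 genes of that table had a more negative log2 fold change. By level Slc27a2 was the 12157th of 12165 genes in Ebf2 KO and the 2123rd in WT, and its call held under all 17 other settings tried, library omissions included. Its exons overlap an exon of Gm26697 on the opposite strand, and without a stated strand setting the reads of the pair cannot be told apart.

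The promoter of Slc27a2 is shown because no other gene of the list changed as much, beside the window of Slc27a1, a family member that moved the other way, in which the EBF letters were found. Each window runs from 250 bases before to 50 bases after a start site of RefSeq (build GRCm38.p6), on the plus strand (chr2:126552774-126553073 and chr8:71569347-71569646), and capitals mark motif letters found on either strand.
Slc27a2: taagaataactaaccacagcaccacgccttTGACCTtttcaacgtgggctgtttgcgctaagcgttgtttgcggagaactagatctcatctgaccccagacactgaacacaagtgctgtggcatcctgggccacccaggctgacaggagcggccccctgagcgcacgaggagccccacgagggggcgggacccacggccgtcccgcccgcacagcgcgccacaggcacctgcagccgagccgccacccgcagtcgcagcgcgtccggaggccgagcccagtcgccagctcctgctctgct
Slc27a1: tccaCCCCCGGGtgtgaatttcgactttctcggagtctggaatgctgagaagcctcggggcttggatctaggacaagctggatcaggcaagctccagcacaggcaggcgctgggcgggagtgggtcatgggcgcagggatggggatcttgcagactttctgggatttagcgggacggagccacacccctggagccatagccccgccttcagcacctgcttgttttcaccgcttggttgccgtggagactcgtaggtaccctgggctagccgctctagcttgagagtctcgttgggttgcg
The letters CCCNNGGG, a core of the EBF binding motif that reads the same on both strands, occur in 1 of 10 windows found for 7 of the 10 genes, the Slc27a1 window shown, which is 1 of 3 start sites of that gene. They occur in 13.7% of all 32851 promoter windows of this length. The letters AGGTCA, a nuclear receptor half-site, occur in 2 of the 10 windows, those of Slc27a2 and Cd36, in both on the other strand as TGACCT, and in 16.3% of all windows. No window of the 10 holds both motifs. Such matches describe the letters only. EBF2 binding was not analysed here.

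SLC27A1 (FATP1) is the family's insulin-responsive transporter of fat and skeletal muscle. Slc27a1 was at 60.1 and 58.1 RPKM in Ebf2 KO, against 9.96 and 26.6 RPKM in WT. The Ebf2 KO libraries lay close together, the WT libraries far apart, and the groups did not overlap. Slc27a1 rose by a log2 change of 1.79 on RPKM (SE 0.391, limma adjusted p = 0.0182) and of 1.26 after centring (limma adjusted p = 0.0273). The authors' deposited table gave 1.12 with an FDR of 0.0269. The size rested on which WT library was used, with a log2 change of 1.12 without WT replicate 1 and 2.45 without WT replicate 2. Quantile normalization (limma adjusted p = 0.0661) and limma-voom on reads recovered from the RPKM (0.0785) each ended the call. After centring it was also lost without Ebf2 KO replicate 1 (0.0682) or WT replicate 1 (0.133).

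Skeletal muscle also makes SLC27A1, and its markers moved in the same direction. Of 17 muscle markers 12 rose and 0 fell on RPKM, where 24.4% of all genes rose and 3.54% fell. After centring 10 rose, where 8.42% of all genes did, and that count depended on which WT library was kept. Their median log2 change was 2.34, against 0.45 for all genes, and none was at 0 in a library. The troponin gene Tnni2 was at 1100 and 1214 RPKM in Ebf2 KO and 116.0 and 264.7 RPKM in WT. Summed over the 17 genes, the level was 10922 and 12516 RPKM in Ebf2 KO and 1205 and 3203 RPKM in WT. The WT library with more Slc27a1 had the higher muscle marker sum, whereas the Ebf2 KO library with more Slc27a1 had the lower sum. Macrophage markers were higher as well, with 5 of 10 called on RPKM, where 24.4% of all genes rose. After centring 4 were called, where 8.42% of all genes rose, and these calls rested on WT replicate 1. Both counts, and those of all genes, moved when 1 library was left out. None of the 10 was at 0. The sum of the 10 was 90.0 and 87.0 RPKM in Ebf2 KO, against 19.1 and 49.4 RPKM in WT. Their part in the levels of Slc27a1, Slc27a3, Slc27a4, Lpl and Cd36 was not tested.

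SLC27A4 (FATP4) is a widely made acyl-CoA synthetase of the endoplasmic reticulum that is needed for the skin barrier. Slc27a4 was at 8.25 and 8.10 RPKM in Ebf2 KO and at 3.57 and 4.92 RPKM in WT. It rose by a log2 change of 0.82 on RPKM (SE 0.247, limma adjusted p = 0.0445), close to the threshold. In the authors' deposited table it was not called (0.33, FDR 0.486). The call was also lost after centring (log2 change 0.29, limma adjusted p = 0.362) and without Ebf2 KO replicate 1 (limma adjusted p = 0.154), Ebf2 KO replicate 2 (0.214) or WT replicate 1 (0.147). SLC27A3 is a family member with acyl-CoA synthetase activity. Slc27a3 was at 1.17 and 1.41 RPKM in Ebf2 KO and at 0.285 and 0.913 RPKM in WT, where it was the lowest of the 10 genes. Its log2 change of 0.54 did not pass (SE 0.239, limma adjusted p = 0.115), though it did without WT replicate 2 (0.0201), and it was 0.02 after centring (limma adjusted p = 0.951).

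Within the family, Slc27a1 led alone in Ebf2 KO, whereas Slc27a1 and Slc27a2 led together in WT. Slc27a2 held 0.0779% and 0.138% of the summed RPKM of Slc27a1 to Slc27a4 in the Ebf2 KO libraries, against 53.5% and 33.2% in the WT libraries. Slc27a1 held 86.4% and 85.8% in Ebf2 KO, against 33.5% and 54.8% in WT, so the groups were apart for both genes. The shares of a library add up to the whole, so the loss of Slc27a2 by itself raises the share of Slc27a1. The ratio of Slc27a1 to Slc27a4, which leaves Slc27a2 out, was 7.28 and 7.17 in Ebf2 KO, against 2.79 and 5.41 in WT. The share of Slc27a4 was 11.9% and 12.0% in Ebf2 KO and 12.0% and 10.1% in WT, a range shared by the genotypes. Slc27a3 held 1.68% and 2.08% in Ebf2 KO and 0.959% and 1.88% in WT. The sum of the family was 69.5 and 67.7 RPKM in Ebf2 KO, against 29.7 and 48.6 RPKM in WT. These shares do not depend on how a library was scaled, and they were not tested.

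**Figure D3:**
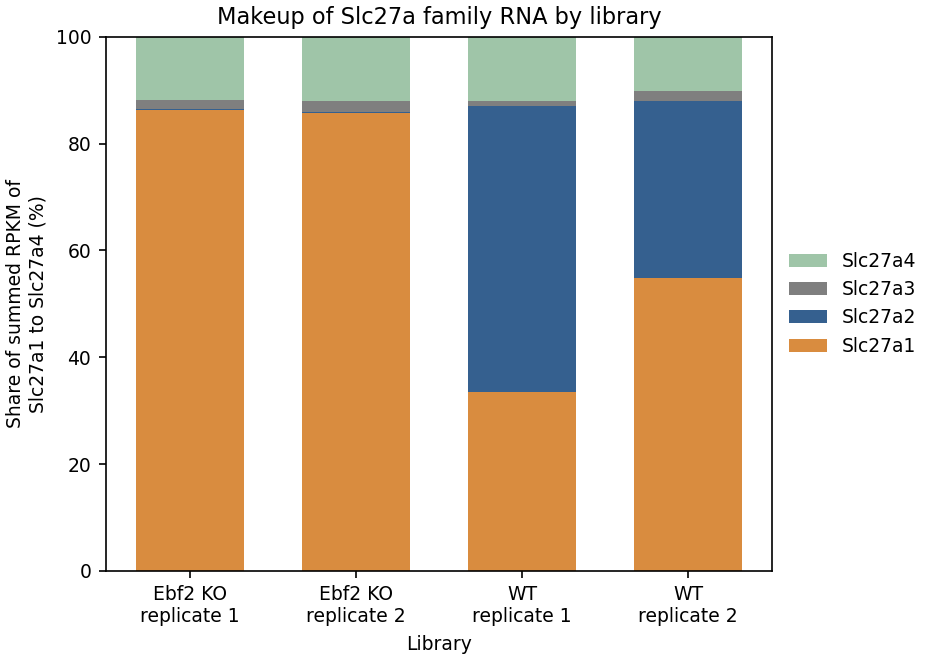
Share (%) of the summed RPKM of Slc27a1, Slc27a2, Slc27a3 and Slc27a4 in each library, with Ebf2 KO to the left of WT. Slc27a1 takes 86.4% and 85.8% in the Ebf2 KO libraries, against 33.5% and 54.8% in the WT libraries, and Slc27a2 takes 0.0779% and 0.138% in Ebf2 KO, against 53.5% and 33.2% in WT.

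By level the order of the 10 genes was much the same in both genotypes at the top and differed at the bottom. In Ebf2 KO it ran Lpl, Cd36, Gpihbp1, Angptl4, Slc27a1, Slc27a4, Lmf1, Vldlr, Slc27a3 and Slc27a2, with Slc27a4 and Lmf1 overlapping between libraries. In WT it ran Lpl, Cd36, Gpihbp1, Angptl4, Slc27a1, Slc27a2, Lmf1, Vldlr, Slc27a4 and Slc27a3. Slc27a1 overlapped with Slc27a2 there, and Vldlr with Slc27a4. The values of all other neighbours were apart. RPKM is scaled by gene length, so these levels can be set side by side.

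The rest of the lipolysis pathway was read from lists of related genes. To set beside the counts below, 24.4% of all genes rose and 3.54% fell on RPKM. After centring 8.42% of all genes rose and 10.3% fell. These shares also moved when 1 library was left out. Of 10 measured partners and inhibitors of lipases, 4 rose and 1 fell on RPKM, and 3 rose and 1 fell after centring (1 rose with either WT library left out). On RPKM the fall was lost with any 1 library left out, and 2 fell after centring without Ebf2 KO replicate 1. Their median log2 change was 0.79, against 0.45 for all genes. Apoa5, Lipc and Lipg were on the list but were not found by symbol among the genes of the deposited table. Apoc2, the activator that LPL requires, was at 9.48 and 9.95 RPKM in Ebf2 KO and 0.634 and 0.826 RPKM in WT (limma adjusted p = 0.00150). Apoc3, an inhibitor of lipoprotein clearance, was 6.84-fold higher (limma adjusted p = 0.00699). Its values were 58.5 and 24.4 RPKM in Ebf2 KO and 7.17 and 4.94 RPKM in WT. Apoe, the ligand for remnant receptors, was 8.82-fold higher (limma adjusted p = 0.00472). It stood at 5233.5 and 2339.1 RPKM in Ebf2 KO and 456.0 and 402.2 RPKM in WT. Both folds rested more on Ebf2 KO replicate 1 than on replicate 2. Sel1l, which LPL needs to leave the endoplasmic reticulum, was 2.48-fold higher on RPKM (adjusted p = 0.0267), a call lost after centring (0.0803). Angptl8, found under its older symbol Gm6484, averaged 16.6 RPKM in Ebf2 KO and 17.2 RPKM in WT (adjusted p = 0.835).

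Of 6 lipoprotein receptor genes besides Vldlr, 3 rose and 0 fell on RPKM, and 2 rose after centring, whereas Vldlr fell. On RPKM 1 rose when Ebf2 KO replicate 2 was omitted, and after centring 1 rose when either Ebf2 KO library or WT replicate 1 was omitted. The median log2 change of the 6 was 0.78. Scarb1, the receptor for high-density lipoprotein, was at 85.4 and 77.1 RPKM in Ebf2 KO and 19.1 and 23.9 RPKM in WT (limma adjusted p = 0.00271). Lrp1, which takes up remnants, was 3.34-fold higher (adjusted p = 0.0168, and 0.0146 after centring).

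Caveolae are pits of the plasma membrane that are dense in fat cells, endothelium and muscle and hold CD36. Of 10 caveola genes 9 rose and 0 fell on RPKM (4 rose without Ebf2 KO replicate 2), and 4 rose after centring (2 or 3 with any 1 library left out). Their median log2 change was 1.34, against 0.45 for all genes. Cav2 was 3.78-fold higher (limma adjusted p = 0.00357), and Ptrf, which encodes the coat protein cavin-1, 3.03-fold higher (0.00559, and 0.0561 after centring). Prkcdbp, which encodes another cavin, was 2.80-fold higher (0.00569). Cav3, the caveolin of muscle, was at 40.2 and 41.6 RPKM in Ebf2 KO and 3.90 and 9.65 RPKM in WT, (limma adjusted p = 0.00478), with the same low WT library as the muscle markers. The summed muscle and macrophage markers were higher in Ebf2 KO alongside the caveola genes and Apoe, and their part in those levels was not tested.

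Once inside the cell, fatty acids are bound by carriers and joined to coenzyme A. The list read for these steps, on which 13 genes were measured, also held Got2, Zdhhc4 and Zdhhc5, which are neither. Of the 13, 1 rose and 1 fell on RPKM, and 0 rose and 2 fell after centring. Their median log2 change was 0.49, near the 0.45 of all genes. The authors' deposited table had 0 higher and 3 lower. On RPKM 0 rose without Ebf2 KO replicate 1 and 3 when either WT library was omitted, while 0 fell without Ebf2 KO replicate 2 and 2 without WT replicate 1. Fabp5, a fatty acid carrier, was 2.30-fold higher (limma adjusted p = 0.0261, and 0.341 after centring), and Acsf3, a mitochondrial synthetase for malonate, was 2.10-fold lower (adjusted p = 0.0230). The other gene that fell after centring was Fabp3, the carrier of heart and of active brown fat, which averaged 154.2 RPKM in Ebf2 KO and 700.9 RPKM in WT (adjusted p = 0.101 on RPKM and 0.0320 after centring). Acsl1, the main long-chain synthetase of fat cells, named after its values were seen, averaged 376.5 RPKM in Ebf2 KO and 213.0 RPKM in WT (adjusted p = 0.0662). Among nuclear receptors that regulate such genes, 1 of 6 rose and 1 fell on RPKM, and 1 rose and 3 fell after centring (Ppara, Pparg and Rxrg), with a median log2 change of -0.46 on RPKM. On RPKM 3 fell without WT replicate 1 and 2 without WT replicate 2, and after centring 1 fell without Ebf2 KO replicate 2 and 2 without WT replicate 2. The authors' deposited table had 4 of the 6 lower. Ppara was at 1.45 and 1.13 RPKM in Ebf2 KO, against 5.70 and 5.58 RPKM in WT (adjusted p = 0.00732), and its partner Rxra was 3.66-fold higher (adjusted p = 0.00548). Of 9 regulators of fatty acid transport through endothelium, Vegfb (1.68-fold, adjusted p = 0.0468) and Notch1 (2.21-fold, adjusted p = 0.0464) rose on RPKM. Of the 9, 0 rose when either Ebf2 KO library was omitted, 1 when WT replicate 1 and 4 when WT replicate 2 was. After centring 0 rose and 1 fell, the fall being lost when Ebf2 KO replicate 2 or either WT library was omitted, and 1 rose without WT replicate 2. The median log2 change on RPKM was 0.34.

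**Figure D4:**
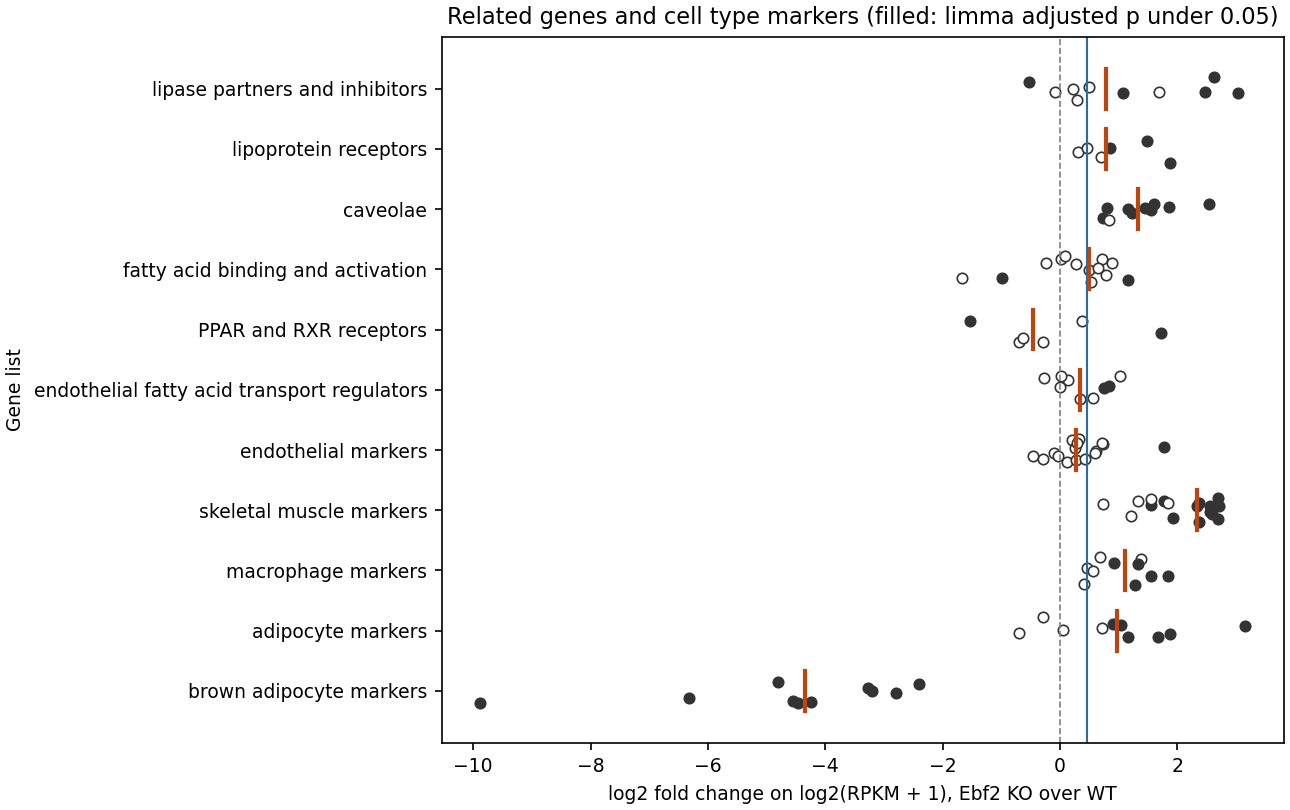
log2 fold change of Ebf2 KO over WT on the log2(RPKM + 1) scale for the genes of each list (points, filled where the limma adjusted p is under 0.05), with the list median (orange bar) and the median of all genes at 0.45 (blue line). The medians of the caveola genes (1.34) and muscle markers (2.34) lie to the right of the blue line, and that of the brown fat cell markers (-4.35) to its left.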

How the data were processed

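Polyadenylated RNA of 4 libraries was compared by genotype, with groups taken from the labels. The authors aligned reads with STAR and tested genotypes with edgeR on mm9, per the submitters' processing notes. The sources used here give no versions, annotation, counter or strand setting. The deposited table gives RPKM per library and mean RPKM, per the file headers, with the authors' log2 fold change, average log2 CPM, p-value and FDR. Each of the 12165 genes reached at least 0.502 RPKM in a library. Library totals were derived from RPKM of microRNA genes with a known length, and with them 12165 genes came out as whole reads within 1e-06. The reads given are the fewest that fit.

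Genotype was tested by limma 3.58.1 (R 4.3.3), trend on, over log2(RPKM + 1) of all genes, with Benjamini-Hochberg adjustment over 12165 genes. This scale understates changes of genes near or below 1 RPKM. Fold values are ratios of mean RPKM. Alternatives were median centring, quantile normalization, a pseudocount of 0.1, a minimum mean of 1 RPKM, no trend, a replicate block, each library left out, a threshold of 0.01, limma-voom on recovered reads and the authors' values. Centring combined with leaving out a library was added after seeing the data. Simulated data of 12165 genes, with a replicate coefficient of variation of 20%, were also fitted by limma. The fit called 50 of 50 genes raised by 2 on the log2 scale and 23 of 50 raised by 1. It called 4 of 11965 genes given a change of 0. The simulation held no shift shared by most genes, whereas the median log2 change of all real genes was 0.45. These counts therefore do not give the rate of false calls in the real libraries. All 10 genes were named, with up to 4 genes per list by smallest p (where none passed, the 2 most abundant). Some genes counted in the lists are not reported here by name. The members and lists were chosen with earlier results of these data known. In the GRCm38 annotation (GENCODE M21), exons of the members overlap those of another gene only for Slc27a2 (Gm26697, not in the table). Promoter windows were found for 7 of 10 genes, not for Lpl, Gpihbp1 and Angptl4.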

Additional observations from a re-analysis of the deposited data

How the results depend on the processing

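Of 10 genes 5 were called on RPKM, 3 higher and 2 lower in Ebf2 KO. The count was 3 by voom on recovered reads, where 966 of all 12165 genes were higher and 1022 lower. It was 1 at an adjusted p under 0.01, where 565 of all genes were higher and 145 lower. Which libraries were kept also changed the number of members called, on RPKM and after centring, and the number of all genes called. Genes higher numbered 1 under median centring and in the authors' deposited table, Slc27a1 in both. Under quantile normalization 1 was higher, Lpl, where 1048 of all genes were. Members higher numbered 0 by voom on recovered reads (1 at an unadjusted p under 0.05) and 0 at 0.01. Genes lower at 0.01 numbered 1.

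The directions that turned were those of genes past no threshold under any setting, apart from Slc27a3. Gpihbp1 had a log2 change of 0.0395 without Ebf2 KO replicate 1 and 0.03 without WT replicate 2. Angptl4 was at -0.18 after centring, -0.30 in the authors' deposited table and -0.33 by voom on recovered reads, and at -0.123, -0.245, -0.0696 and -0.30 after centring without Ebf2 KO replicate 1, Ebf2 KO replicate 2, WT replicate 1 and WT replicate 2. Cd36 was at -0.11, -0.24 and -0.26 in the same settings, and at -0.118, -0.10 and -0.32 after centring without Ebf2 KO replicate 1, Ebf2 KO replicate 2 and WT replicate 2. Slc27a3 was at -0.0046 and -0.0929 after centring without Ebf2 KO replicate 1 and WT replicate 1. Causes were not tested. Slc27a2 kept its direction and call under all 17 alternatives.

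With the replicate block 6 genes were called, 4 higher and 2 lower, where 6325 of all 12165 genes were higher and 746 lower. Slc27a3 was added (limma adjusted p = 0.00986). The replicate numbers share no stated source, and their deviations correlated at r = 0.348 over genes. With 2 libraries a group, precision rests on the spread borrowed across genes. Depth limits Slc27a2 in Ebf2 KO alone, at 22 and 35 reads.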
